A study of Mus musculus with 40 samples.

Results

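The genes described here are 10 plasma membrane amino acid transporters: Slc3a2, Slc7a5, Slc7a8, Slc7a6, Slc7a7, Slc7a11, Slc7a1, Slc1a4, Slc1a5 and Slc38a2. They were taken by gene symbol from a table of 27179 genes, each symbol matched 1 row, and all 10 passed the filter on low values in each of the 20 comparisons. The values came from poly(A) RNA-seq of bone marrow-derived macrophages (BMDMs), which are macrophages grown in culture from bone marrow with L-cell conditioned medium as the source of M-CSF. The mice were male, of a mixed C57BL/6J and 129 strain background, and either wildtype (WT) or full knockouts of Cpeb4 (Cpeb4-/-), whose product CPEB4 binds cytoplasmic polyadenylation elements in mRNAs. Cells were left untreated (0 hr) or given 10 ng/ml LPS, a bacterial cell wall component that activates macrophages, for 1, 3, 6 or 9 hr. Cells of 4 WT mice (numbered 25, 69, 87 and 88) and 4 Cpeb4-/- mice (2, 3, 55 and 62) were sequenced at all 5 times, which gave 40 libraries. Each of the 2 batches held 2 mice of each genotype, while no cage held both genotypes, so cage and genotype cannot be told apart. The share of each strain's genome in a mouse was not tested. The authors deposited regularized log values (rlog), a log2 scale corrected for library size on which differences of weakly expressed genes are shrunken. The values are not divided by transcript length, so levels are compared between samples and not between genes, and read depth cannot be read from them. In cultures measured as bulk RNA, fewer cells of a type and less RNA per cell cannot be told apart.

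Amino acids cross the plasma membrane through carriers that differ in substrate and in driving force. SLC3A2 (CD98 heavy chain) is a glycoprotein that brings light chains of the SLC7 family to the cell surface, where these act as exchangers. SLC7A5 and SLC7A8 exchange large neutral amino acids such as leucine, SLC7A6 and SLC7A7 exchange cationic amino acids for neutral ones with sodium, and SLC7A11 takes up cystine in exchange for glutamate, which feeds glutathione synthesis. SLC7A1 carries arginine and lysine without the heavy chain. SLC1A4 and SLC1A5 are sodium-dependent exchangers of small neutral amino acids, glutamine among them for SLC1A5, and SLC38A2 accumulates small neutral amino acids with sodium. In activated macrophages these carriers supply arginine for nitric oxide, cystine for glutathione and leucine and glutamine for mTORC1 signalling and metabolism.

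The libraries carried the macrophage markers. All 8 macrophage markers were well expressed, from 8.89 to 18.91 on the rlog scale over the 40 libraries. All 5 LPS response genes examined were higher in WT cells at 6 and 9 hr than in untreated ones, for example Tnf at 15.46 ± 0.0394 (SD, n = 4 mice here and below) at 6 hr against 12.48 ± 0.0329. Cpeb4 itself was lower in the libraries labelled Cpeb4-/- at 6 hr (9.18 ± 0.447 against 10.45 ± 0.262 in WT, adjusted p = 0.00114). At the other 4 times its genotype difference lay between −0.55 and 0.37 with adjusted p of 0.357 or more, so at those times the genotype is as the labels give it. The gene's total cannot separate intact transcripts from those of the deleted allele. The summed level of the 8 macrophage markers (antilogs of rlog) was 516905 to 642533 in WT and 412374 to 491187 in Cpeb4-/- cells at 0 hr, and 620165 to 652574 against 495678 to 575905 at 6 hr, so the groups did not overlap. Lyz2 was the highest of the 8, at an rlog of 17.72 to 18.91, and weighed most in this sum. At 0 hr Adgre1, Csf1r and Cd68 averaged 15.64, 15.71 and 14.64 in WT and 15.56, 15.60 and 14.58 in Cpeb4-/- cells. None of the 8 was higher in Cpeb4-/- cells by the test, and 1, 1, 2, 4 and 3 were lower at 0, 1, 3, 6 and 9 hr. Of all genes, 0.565%, 0.938%, 1.87%, 9.92% and 3.22% were called lower at these times. Those called higher were 0.741%, 0.976%, 1.81%, 6.4% and 4.69%. The 4 T cell markers summed to 4.43 to 9.06 over all libraries, with Cd2 the highest of them at an rlog of up to 2.35. The 4 B cell markers summed to 72.5 to 99.5 in WT and 58.8 to 68.0 in Cpeb4-/- cells at 0 hr, without overlap, and to 30.1 to 34.9 and 29.7 to 38.8 at 6 hr, with Cd79b at an rlog of 4.56 to 6.55. The summed level of 6 neutrophil and precursor markers was 59.1 to 112 in untreated WT libraries and 179 to 252 at 6 hr, with S100a8 at an rlog of 5.00 to 7.70 and S100a9 at 3.93 to 6.01 while Ly6g stayed below 0 in every library, and the erythroid genes Hba-a1 and Hbb-bs were listed at 0 in all libraries. The summed level of 4 mast cell and basophil markers at 6 hr was 15.7 to 17.1 in WT and 9.90 to 12.5 in Cpeb4-/- libraries. It was 9.36 to 16.9 against 7.53 to 9.10 at 0 hr and 13.8 to 20.8 against 9.38 to 13.4 at 1 hr. At 3 and 9 hr the ranges overlapped. Kit was the highest of these markers, at an rlog of 2.18 to 4.93, while Cpa3, Mcpt8 and Fcer1a averaged below the filter on low values. The part of these levels and shifts in the transporter results was not tested.

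Because several members are known targets of the amino acid response, the promoters were searched for its core element. RefSeq promoter windows of GRCm38.p6 (mm10), each 300 bases around a transcript start, were present for 8 of the 10 genes in 14 windows; Slc7a5 and Slc1a5 had none in the table. On both strands, the amino acid response element core TGATGNAAN was present in 3.95% of 32851 promoters and in 4 of the 14 windows, those of Slc7a11, Slc7a7 and Slc1a4. The antioxidant response element core TGACNNNGC was present in 12.4% of promoters and in 4 of the 14 windows, those of Slc7a1, Slc7a6 and Slc38a2. The E-box CACGTG was present in 7.15% and in no member's window. For Slc7a7 and Slc7a6, overlapping windows share a match. A match describes the letters of the window and not a site in use. Windows of Slc7a11, Slc7a7 and Slc1a4 with the amino acid response element core are shown 5′ to 3′ on the gene's strand, with its matches in capitals. A link between this element and the genotype differences was not tested.
Slc7a11 promoter, chr3:50443564-50443863, minus strand: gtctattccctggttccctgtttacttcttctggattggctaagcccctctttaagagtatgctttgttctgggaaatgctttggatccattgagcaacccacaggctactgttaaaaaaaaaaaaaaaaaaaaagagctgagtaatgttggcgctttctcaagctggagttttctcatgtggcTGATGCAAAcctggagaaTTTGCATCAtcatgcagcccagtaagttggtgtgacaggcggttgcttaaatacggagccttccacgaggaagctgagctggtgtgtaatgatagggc
Slc7a7 promoter, chr14:54417895-54418194, minus strand: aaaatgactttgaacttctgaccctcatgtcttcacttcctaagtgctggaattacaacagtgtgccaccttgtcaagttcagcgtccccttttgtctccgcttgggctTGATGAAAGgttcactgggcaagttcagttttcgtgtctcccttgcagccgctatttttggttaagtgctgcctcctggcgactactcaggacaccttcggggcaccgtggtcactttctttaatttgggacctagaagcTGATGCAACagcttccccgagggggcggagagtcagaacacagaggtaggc
Slc1a4 promoter, chr11:20332664-20332963, minus strand: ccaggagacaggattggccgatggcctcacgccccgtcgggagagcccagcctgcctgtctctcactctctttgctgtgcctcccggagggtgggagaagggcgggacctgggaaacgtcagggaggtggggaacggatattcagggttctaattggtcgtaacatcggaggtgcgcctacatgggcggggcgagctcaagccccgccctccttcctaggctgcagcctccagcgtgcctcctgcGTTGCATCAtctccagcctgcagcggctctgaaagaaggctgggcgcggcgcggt
The Slc7a11 window lies inside the RefSeq gene (chr3:50364936-50499087) and held 2 matches on opposite strands, TGATGCAAA at −66 to −58 and TTTGCATCA at −48 to −40 from the start. The Slc7a7 window held TGATGAAAG at −141 to −133 and TGATGCAAC at −1 to 8, and a second Slc7a7 window repeats the latter. The Slc1a4 window held GTTGCATCA at −5 to 4. In the same build Slc7a7 lies at chr14:54369442-54420068 and Slc7a8 on the same chromosome at chr14:54722215-54781886, and Slc3a2 lies at chr19:8706882-8723369.

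In WT cells, LPS raised most of these mRNAs and lowered Slc1a5 and, after an early rise, Slc38a2. At 1 hr 6 of the 10 were higher than in untreated cells, against 17.3% of the 13100 genes tested, and 0 were lower, against 16.6% (limma, adjusted p under 0.05, as for all calls below). At an unadjusted p under 0.05 in limma the number at 1 hr, in either direction, was also 6, against 41.9% of all genes. At 3 hr LPS had raised 6 and lowered 2 (32.5% and 35.3% of all genes). By 6 hr 6 were up and 3 down (38.7% and 39.2%), and by 9 hr 8 were up and 2 down (35.9% and 35.6%). Between consecutive times 7 of the 10 changed from 1 to 3 hr (60.1% of all genes), 7 from 3 to 6 hr (63.7%) and 3 from 6 to 9 hr (51.4%). The median absolute log2 change of the 10 at 6 hr was 0.72, beside 0.55 over all genes. The 4 comparisons with untreated cells share the same 4 untreated libraries. At 1 hr the split of called genes depended on the scaling: 51.0% of all calls were higher with the rlog values as deposited and 37.8% after quantile normalization.

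**Figure D1:**
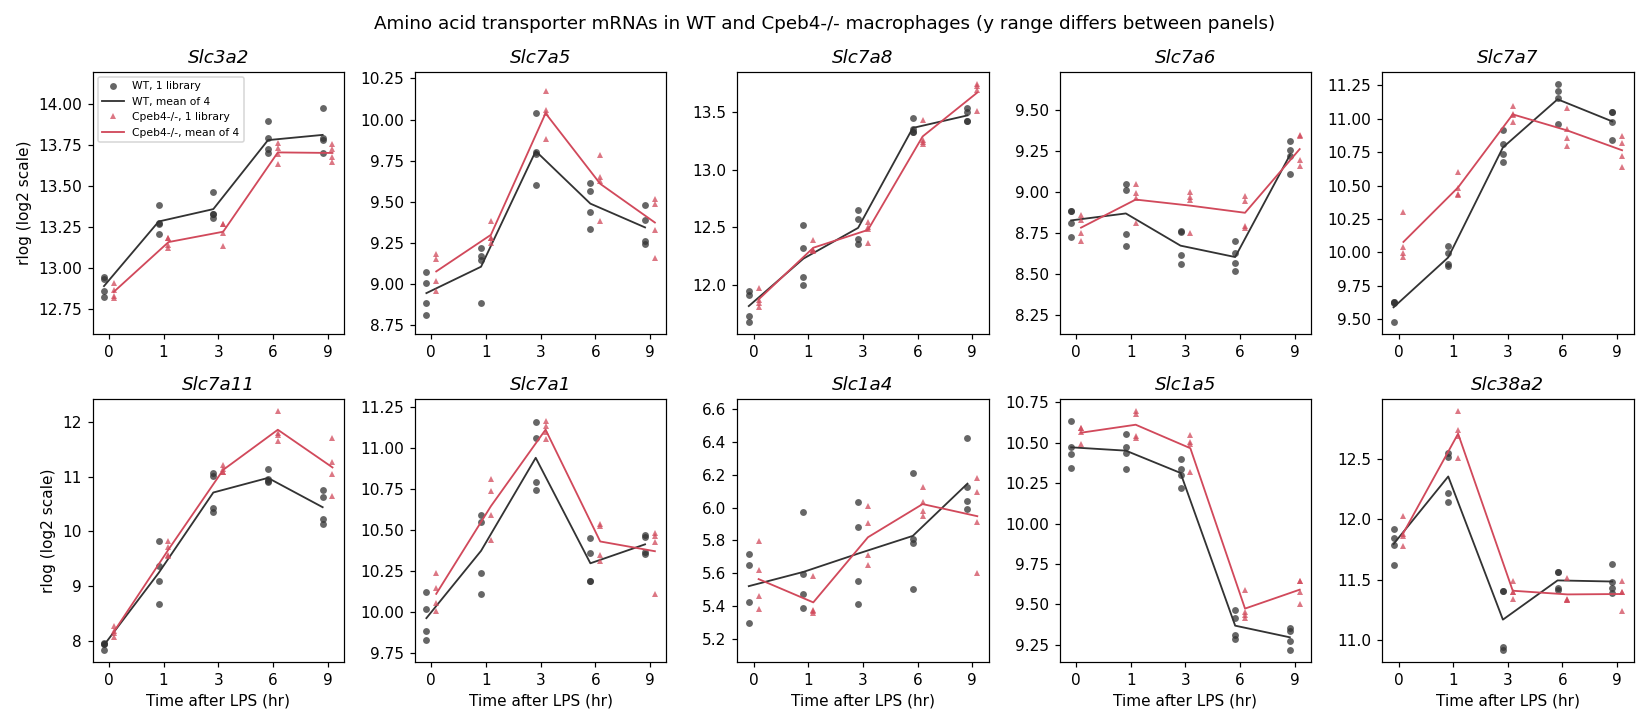
Each panel plots 1 transporter, with hours after LPS on the x axis (0, 1, 3, 6, 9) and rlog (log2 scale) on the y axis, whose range differs between panels. Circles are WT libraries, triangles Cpeb4-/- libraries (1 per mouse) and lines the means of 4; Slc7a11 climbs to 10.90 to 11.13 in WT and 11.66 to 12.19 in Cpeb4-/- cells at 6 hr, Slc7a7 lines cross between 3 and 6 hr, Slc1a5 drops after 3 hr, and the 3 hr rise of Slc3a2 turns to a fall after quantile normalization.

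Slc7a11 showed the largest change of the 10. In WT cells its rlog in mice 25, 69, 87 and 88 was 7.96, 7.95, 7.84 and 7.96 before LPS. It was 9.37, 9.83, 8.68 and 9.09 at 1 hr and 10.35, 11.06, 10.42 and 11.01 at 3 hr. All libraries with LPS stood above all untreated ones, and mouse 69 had the highest value of the WT mice at all 4 of those times. The values were 10.92, 11.13, 10.90 and 10.95 at 6 hr and 10.14, 10.76, 10.23 and 10.63 at 9 hr. The 6 hr level was 8.27-fold that of untreated cells on this scale, a log2 difference of 3.05 (SE 0.19, adjusted p = 9.27e-12). The rise was present from 1 hr, with log2 differences of 1.32 (adjusted p = 1.56e-05), 2.78 (adjusted p = 7.56e-11) and 2.51 (adjusted p = 3.19e-10) at 1, 3 and 9 hr. From 6 to 9 hr the level fell by 0.53 (adjusted p = 0.0269), a call that was lost after quantile normalization (adjusted p = 0.0797), with no filter on low values (adjusted p = 0.0614), without mouse 25 (−0.45, adjusted p = 0.131) and without mouse 88 (−0.60, adjusted p = 0.0590).

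Of the CD98 partners with large neutral substrates, Slc7a8 was highest late and Slc7a5 at 3 hr. Slc7a8 rlog in WT mice 25, 69, 87 and 88 was 11.95, 11.91, 11.67 and 11.73 at 0 hr, 13.33, 13.45, 13.35 and 13.33 at 6 hr and 13.42, 13.54, 13.43 and 13.50 at 9 hr. The groups did not overlap with 0 hr at either time. The log2 difference was 0.41 (adjusted p = 0.00138), 0.68 (adjusted p = 1.62e-06), 1.55 (adjusted p = 3.15e-12) and 1.66 (adjusted p = 1.68e-12) at 1, 3, 6 and 9 hr. After quantile normalization these became 0.23, 0.23, 0.85 and 1.21, and the 1 hr call was lost (adjusted p = 0.0773). Slc7a5 rlog was 9.01, 8.88, 9.07 and 8.81 at 0 hr, 9.60, 10.04, 9.79 and 9.80 at 3 hr and 9.24, 9.39, 9.48 and 9.26 at 9 hr. All 4 values at 3 hr lay above those at 0 and 9 hr. At 6 hr they were 9.33, 9.57, 9.62 and 9.44, of which mouse 87 stood just above the lowest 3 hr value. Its log2 difference from 0 hr was 0.87 (SE 0.093, adjusted p = 5.73e-08) at 3 hr, 0.55 (adjusted p = 2.02e-05) at 6 hr and 0.40 (adjusted p = 0.000687) at 9 hr. From 3 to 6 hr it fell by 0.32 (adjusted p = 0.00514). At 1 hr it did not pass the test, with 0.16 and a 95% interval of −0.033 to 0.35.

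Their heavy chain Slc3a2 was higher than in untreated cells at every time in the deposited scaling, but after quantile normalization the 3 hr difference turned to −0.13 (adjusted p = 0.0387). Its rlog was 12.83, 12.95, 12.93 and 12.86 at 0 hr, 13.33, 13.47, 13.33 and 13.31 at 3 hr and 13.71, 13.90, 13.79 and 13.73 at 6 hr, with no overlap between these times. The log2 differences at 1, 3, 6 and 9 hr were 0.39, 0.47, 0.89 and 0.92, with adjusted p of 1.91e-05 or less. After quantile normalization they were 0.13, −0.13, 0.021 and 0.33, and only the 9 hr rise was still called as a rise (adjusted p = 9.67e-06). The step from 1 to 3 hr, 0.076 and not called, became −0.26 (adjusted p = 0.000247). Over the 20 WT libraries, which share mice and a time course, Slc3a2 correlated with Slc7a8 at a Pearson r of 0.96, with Slc7a7 at 0.90, with Slc7a11 at 0.85 and with Slc7a5 at 0.50, and over the 20 Cpeb4-/- libraries at 0.97, 0.68, 0.86 and 0.31. Slc7a6 had 0.17 and 0.52. Among genes whose products are not its partners, Slc1a4 had 0.64 and 0.71 and Slc7a1 had 0.31 and 0.037. Slc38a2 had −0.34 and −0.54, and Slc1a5 had −0.87 and −0.91.

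The exchangers of cationic for neutral amino acids parted. Slc7a7 rlog in WT mice 25, 69, 87 and 88 was 9.63, 9.48, 9.63 and 9.63 at 0 hr. It was 9.99, 10.05, 9.91 and 9.90 at 1 hr, 10.81, 10.92, 10.74 and 10.67 at 3 hr and 11.21, 11.15, 11.26 and 10.96 at 6 hr. The 4 times did not overlap. The log2 difference from 0 hr was 0.37 (adjusted p = 0.000192) at 1 hr, 1.19 (adjusted p = 2.87e-12) at 3 hr, 1.55 (SE 0.068, adjusted p = 1.94e-14) at 6 hr and 1.39 (adjusted p = 2.14e-13) at 9 hr. The small step down from 6 to 9 hr, −0.17 (adjusted p = 0.0495), was not called after quantile normalization (−0.035), with no filter on low values or without a trend in the variance (adjusted p = 0.0733 and 0.0611), or without mouse 25, 69 or 87 (adjusted p = 0.143, 0.115 and 0.137). Slc7a6 rlog was 8.89, 8.88, 8.73 and 8.81 at 0 hr, 8.70, 8.52, 8.63 and 8.56 at 6 hr and 9.31, 9.11, 9.22 and 9.25 at 9 hr, so that each 6 hr value was below and each 9 hr value above those of untreated cells. Its log2 difference was −0.22 (adjusted p = 0.0151) at 6 hr and 0.40 (adjusted p = 0.000161) at 9 hr. The 6 hr call was lost without mouse 69 (−0.18, adjusted p = 0.0784) and after quantile normalization (−0.035, adjusted p = 0.678), and the step from 6 to 9 hr was 0.62 (adjusted p = 1.75e-06).

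Slc7a1, the arginine carrier outside the CD98 group, was highest at 3 hr and fell by 0.64 from 3 to 6 hr (adjusted p = 2.37e-05). Its rlog in WT mice was 10.12, 10.02, 9.89 and 9.83 at 0 hr, 10.74, 11.16, 10.79 and 11.06 at 3 hr and 10.19, 10.45, 10.36 and 10.19 at 6 hr. The 3 hr values all exceeded those of the other 2 times, and the 6 hr values exceeded those at 0 hr. The log2 difference from untreated cells was 0.41 (adjusted p = 0.00444), 0.98 (adjusted p = 6.68e-08), 0.33 (adjusted p = 0.00718) and 0.45 (adjusted p = 0.000796) at 1, 3, 6 and 9 hr. After quantile normalization the 6 hr difference was 0.20 (adjusted p = 0.0888), past the threshold no longer.

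The sodium-dependent carriers of small neutral amino acids followed 3 courses. Slc1a5 rlog in WT mice was 10.43, 10.64, 10.48 and 10.35 at 0 hr and 10.30, 10.40, 10.34 and 10.22 at 3 hr, with overlap. It was 9.31, 9.47, 9.41 and 9.28 at 6 hr and 9.36, 9.27, 9.22 and 9.34 at 9 hr. All late values lay below all earlier ones. The log2 difference from 0 hr was −1.10 (SE 0.064, adjusted p = 1.91e-12) at 6 hr, 2.15-fold lower on this scale, and −1.18 (adjusted p = 1.12e-12) at 9 hr. The difference at 3 hr, −0.16 (adjusted p = 0.0341), was −0.32 after quantile normalization and lost its call without mouse 25, 69 or 87 (adjusted p = 0.0964, 0.0811 and 0.0836).

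Slc38a2 rose first and then fell below its starting level. Its rlog was 11.92, 11.85, 11.62 and 11.79 at 0 hr, 12.51, 12.55, 12.14 and 12.22 at 1 hr and 10.94, 11.41, 10.92 and 11.40 at 3 hr. Each 1 hr value was above and each 3 hr value below all untreated values. The log2 differences at 1, 3, 6 and 9 hr were 0.56 (adjusted p = 0.000468), −0.63 (adjusted p = 4.86e-05), −0.30 (adjusted p = 0.0191) and −0.31 (adjusted p = 0.0179), and the step from 1 to 3 hr was −1.19 (adjusted p = 1.21e-08). After quantile normalization the falls at 3, 6 and 9 hr were larger, at −0.99, −0.79 and −0.66. The calls at 6 and 9 hr were lost without mouse 25 (adjusted p = 0.110 and 0.0804), and that at 9 hr without mouse 69 (adjusted p = 0.0681). Slc1a4, whose rlog values were the lowest of the 10 and so the most open to shrinkage, had rlog of 5.71, 5.65, 5.42 and 5.30 at 0 hr and 6.13, 6.04, 6.42 and 5.99 at 9 hr, without overlap. It passed the test at 9 hr (0.62, SE 0.17, adjusted p = 0.00217). At 3 hr its difference of 0.20 (adjusted p = 0.299) passed after quantile normalization (0.37, adjusted p = 0.0469), and at 6 hr that of 0.31 (adjusted p = 0.0966) passed with the same scaling (0.60, adjusted p = 0.00198) and without mouse 25 (0.48, adjusted p = 0.0224).

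Among other amino acid transporters, Slc7a11 had the second largest rise at 6 hr in WT cells. Of 41 other carriers listed, 20 passed the filter in the WT libraries; at 6 hr LPS had raised 10 of them and lowered 8 (38.7% and 39.2% of all genes), with a median log2 difference of 0.14. Slc7a2, an inducible arginine carrier, rose from 9.42 ± 0.0514 to 13.36 ± 0.144, a difference of 3.95 (SE 0.11, adjusted p = 5.51e-18). The lysosomal histidine and peptide carrier Slc15a3 rose by 2.53 (SE 0.040, adjusted p = 3.04e-21) and the glutamate carrier Slc1a2 by 1.36 (SE 0.22, adjusted p = 8.43e-06). The leucine carrier Slc43a2 had −2.26 (SE 0.060, adjusted p = 5.02e-18), Slc7a4 had −1.94 (SE 0.11, adjusted p = 2.03e-12) and the small neutral amino acid carrier Slc36a2 had −1.52 (SE 0.22, adjusted p = 1.89e-06), all falls.

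**Figure D2:**
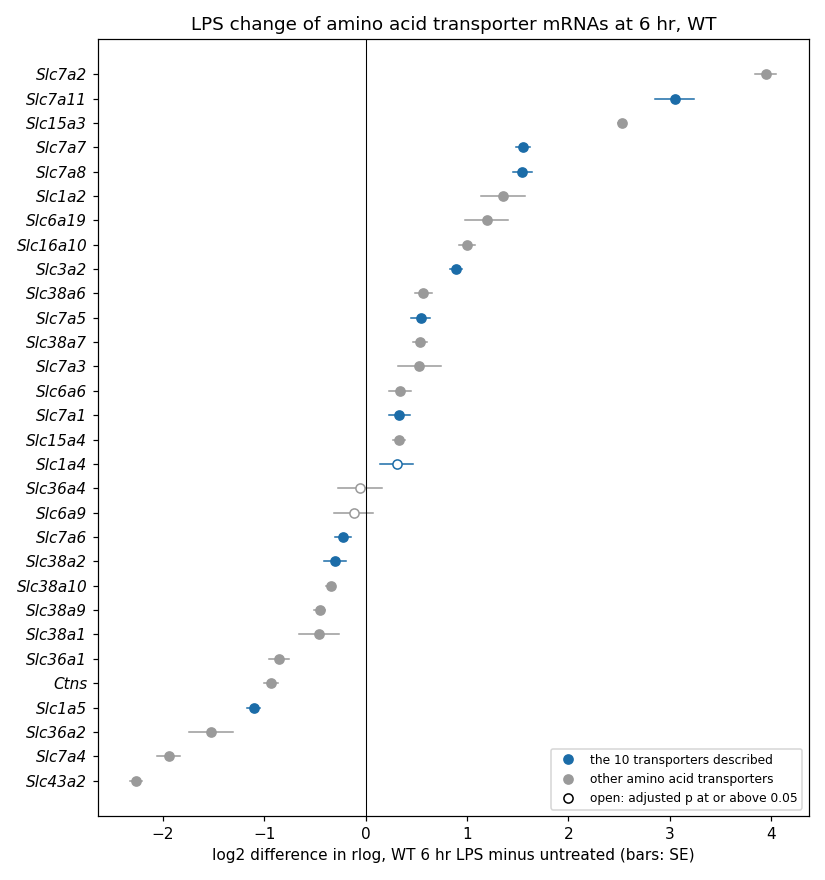
The plot gives the log2 difference in rlog between 6 hr LPS and untreated WT cells (x axis, bars are SE of the limma fit, 4 mice per group) for the 30 tested amino acid transporters on the y axis. The 10 transporters described are in blue and filled points passed the test; Slc7a11 at 3.05 stands second to Slc7a2 at 3.95, and Slc1a5 at −1.10 is the lowest of the 10. The Slc3a2 and Slc7a8 points at 0.89 and 1.55 become 0.021 and 0.85 after quantile normalization.

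LPS also changed most of these mRNAs in Cpeb4-/- cells. The numbers called against their own untreated libraries, in either direction, were 8 at 1 hr (43.8% of all genes), 7 at 3 hr (71.3%), 9 at 6 hr (79.1%) and 10 at 9 hr (72.8%). At 1 hr 54.3% of all genes called were higher in the deposited scaling and 38.0% after quantile normalization. Slc7a11 again changed most, with log2 differences of 1.50, 2.95, 3.68 and 3.00 at 1, 3, 6 and 9 hr. Slc7a8 reached 1.80 at 9 hr, Slc7a1 and Slc7a5 had 1.00 and 0.96 at 3 hr, and Slc1a5 had −1.09 at 6 hr, beside 1.66, 0.98, 0.87 and −1.10 in WT cells. Slc38a2 rose by 0.82 at 1 hr and stood at −0.48, −0.51 and −0.51 later, which became −0.83, −0.96 and −0.85 after quantile normalization. Slc3a2 was higher at every time (0.30, 0.37, 0.85 and 0.85), again with a turned sign at 3 hr after quantile normalization (−0.19, adjusted p = 5.67e-05) and with the calls at 1 and 6 hr lost (0.051 and 0.050), and at 9 hr 0.29 still called. The Slc7a1 calls at 6 and 9 hr (0.32 and 0.26) were lost after it too (0.17 and 0.14). At 1 hr the calls of Slc7a6 (0.17, adjusted p = 0.0496) and Slc7a5 (0.22, adjusted p = 0.0399) were each lost without mouse 3, 55 or 62, with no filter on low values and without a trend in the variance. At 9 hr the calls were lost for Slc7a1, Slc7a5 and Slc1a4 without mouse 55 (adjusted p = 0.105, 0.0922 and 0.118) and for Slc7a1 without mouse 62 (0.24, adjusted p = 0.0551). With the mouse as a block, 2 more passed at 3 hr, Slc7a6 at 0.13 (adjusted p = 0.0410) and Slc1a4 at 0.26 (adjusted p = 0.0465). The number of all genes called with the block was not counted.

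Slc7a11 also had the largest genotype difference of the 10 at 6 hr. At 6 hr its rlog in Cpeb4-/- mice 2, 3, 55 and 62 was 11.80, 12.19, 11.77 and 11.66, and every value was above the highest WT value of 11.13. The difference between genotypes was 0.88 (SE 0.096, adjusted p = 0.000221), or 1.84-fold, and 0.77 to 0.94 when each mouse was left out in turn. Within the batches it was 0.99 in batch 1 and 0.77 in batch 2, with 2 mice of each genotype in each. At 9 hr the Cpeb4-/- values were 10.65, 11.70, 11.05 and 11.27, of which mouse 2 fell among the WT values and the other 3 lay above them. The difference of 0.73 (SE 0.20, adjusted p = 0.0543) did not pass the threshold, with a 95% interval of 0.28 to 1.18. It was called with batch as a covariate (adjusted p = 0.0335), with the mouse as a block (adjusted p = 0.00246) and without mouse 2 (0.90, adjusted p = 0.00325), and was 1.10 and 0.36 within batches 1 and 2. The summed level of 5 fibroblast and stromal markers at 9 hr ranged from 20.6 to 25.2 in WT and from 24.9 to 67.3 in Cpeb4-/- libraries, and its part in the 9 hr differences was not tested.

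Before 6 hr the Slc7a11 groups were closer. At 0 hr the Cpeb4-/- values were 8.08, 8.27, 8.19 and 8.15, all above the WT range of 7.84 to 7.96, and the difference of 0.24 (adjusted p = 0.0897) did not pass. At 1 and 3 hr the differences were 0.43 (adjusted p = 0.156) and 0.41 (adjusted p = 0.136). The WT spread was wide at both times, and the differences passed without mouse 69 at 1 hr (0.62, adjusted p = 0.0402) and without mouse 88 at 3 hr (0.51, adjusted p = 0.0303). The change within a mouse from 0 to 6 hr was 2.96 to 3.18 in the WT and 3.51 to 3.92 in the Cpeb4-/- mice, without overlap. The interaction, which tests whether the LPS change differs between genotypes, was 0.64 (SE 0.26, adjusted p = 0.197) at 6 hr, not called, and was called with the mouse as a block (adjusted p = 0.0371).

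Slc7a7 was the transporter that passed the genotype test in both directions, higher in Cpeb4-/- cells up to 3 hr and lower at 6 hr. At 0 hr its rlog in Cpeb4-/- mice 2, 3, 55 and 62 was 10.04, 10.30, 10.00 and 9.97, all above the WT values. The difference was 0.49 (SE 0.075, adjusted p = 0.0127), or 1.40-fold, and 0.51 and 0.47 within batches 1 and 2. The Cpeb4-/- values were 10.43, 10.60, 10.48 and 10.44 at 1 hr and 10.97, 11.09, 11.03 and 11.03 at 3 hr, again above every WT value. The differences were 0.52 (SE 0.059, adjusted p = 0.00426) at 1 hr and 0.25 (adjusted p = 0.0457) at 3 hr, and 0.57 and 0.47 within batches at 1 hr and 0.32 and 0.17 at 3 hr. At 6 hr the Cpeb4-/- values were 10.85, 10.79, 11.08 and 10.92, below every WT value except in mouse 55, and at 9 hr they were 10.72, 10.64, 10.87 and 10.82, of which mouse 55 stood above the lowest WT value. The difference was −0.23 (SE 0.072, adjusted p = 0.0441) at 6 hr and −0.22 (adjusted p = 0.0750) at 9 hr, the latter called with the mouse as a block (adjusted p = 0.0378) and without mouse 2 (adjusted p = 0.0385). Within batches it was −0.23 and −0.24 at 6 hr and −0.21 and −0.22 at 9 hr.

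Several Slc7a7 genotype calls lay near the threshold. The 0 hr call was lost with no filter on low values (adjusted p = 0.0897). The 3 hr call was lost without each of mice 25, 87, 2, 3, 55 and 62, where the difference was 0.23 to 0.27. It was also lost with batch as a covariate, with no filter and without a trend in the variance (adjusted p = 0.0807, 0.0963 and 0.0860). The 6 hr call was lost without each of mice 25, 69, 87, 2, 3 and 62 (−0.24 to −0.19), after quantile normalization (−0.21, adjusted p = 0.0697), and with no filter and without a trend in the variance (adjusted p = 0.163 and 0.109). From 0 to 6 hr Slc7a7 rose by 1.33 to 1.68 in the WT mice and by 0.49 to 1.08 in the Cpeb4-/- mice, and from 0 to 9 hr by 1.21 to 1.50 and 0.34 to 0.87, without overlap. The interaction was −0.72 (SE 0.10, adjusted p = 5.29e-05) at 6 hr and −0.70 (SE 0.10, adjusted p = 0.000148) at 9 hr, and it was called at both times in every alternative run. At 1 and 3 hr it was 0.034 and −0.24, not called.

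**Figure D3:**
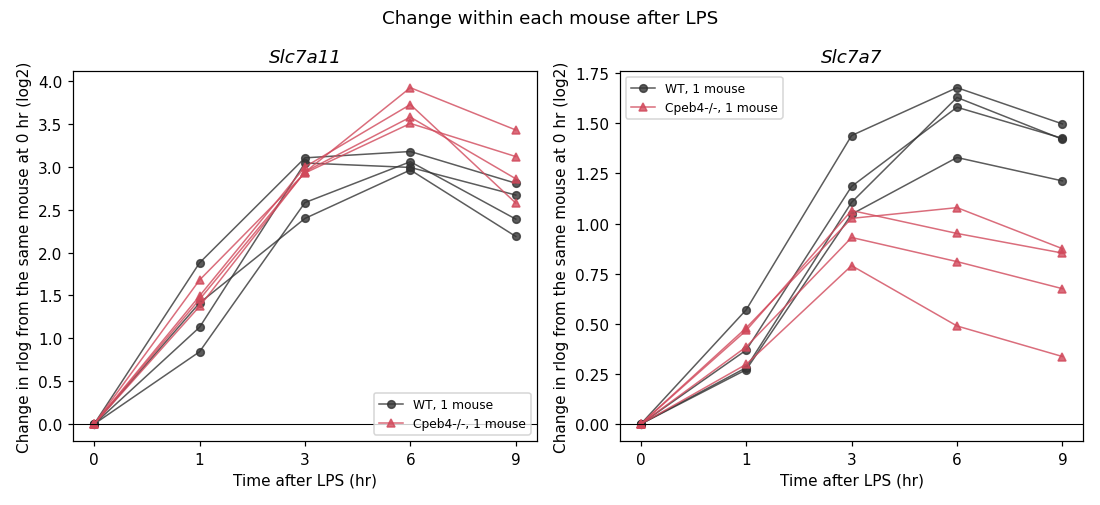
The panels plot, for Slc7a11 on the left and Slc7a7 on the right, the change in rlog (log2) from the same mouse's untreated library against hours after LPS, 1 line per mouse. At 6 hr the 4 Cpeb4-/- mice (triangles) lie at 3.51 to 3.92 for Slc7a11, above the WT mice (circles) at 2.96 to 3.18, and at 0.49 to 1.08 for Slc7a7, below the WT mice at 1.33 to 1.68.

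Of the other 8 transporters, Slc7a6 and Slc1a5 each passed the genotype test at 1 time. Slc7a6 in Cpeb4-/- cells at 6 hr was 8.94, 8.79, 8.78 and 8.98, all above the WT values, a difference of 0.27 (SE 0.064, adjusted p = 0.0139) that was 0.25 and 0.29 within batches. Slc1a5 in Cpeb4-/- cells at 9 hr was 9.64, 9.58, 9.50 and 9.64, all above the WT values, a difference of 0.29 (SE 0.057, adjusted p = 0.0143) that was 0.26 and 0.33 within batches. Without mouse 87 it was 0.27 (adjusted p = 0.0517). Slc7a8 at 9 hr had 0.20 (adjusted p = 0.0718), which passed without mouse 2 (adjusted p = 0.00253) and after quantile normalization (0.27, adjusted p = 0.0166). Slc38a2 at 1 hr was 12.51, 12.89, 12.69 and 12.74 in Cpeb4-/- cells, of which 1 value overlapped the WT range of 12.14 to 12.55, and the difference of 0.35 (adjusted p = 0.0843) passed without mouse 69 (0.42, adjusted p = 0.0425). At 6 hr Slc38a2 was at −0.12, and without mouse 55 at −0.16 (adjusted p = 0.0396).

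Differences that were not called were bounded as follows. The 95% intervals of Slc3a2 were −0.13 to 0.064 at 0 hr, −0.18 to 0.033 at 6 hr and −0.25 to 0.027 at 9 hr, and at 6 hr its estimate of −0.075 turned to 0.020 after quantile normalization. For Slc7a5 they were −0.030 to 0.29 at 0 hr and −0.062 to 0.30 at 6 hr, and for Slc7a1 −0.013 to 0.31 and −0.022 to 0.29. Slc1a4 had the widest intervals among the uncalled genes at 6 hr, −0.094 to 0.48.

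Counted together, 1 of the 10 was higher in Cpeb4-/- cells at 0 hr, against 0.741% of all genes, and 0 lower, against 0.565%. Higher and lower ones numbered 1 and 0 at 1 hr (0.976% and 0.938% of all genes), at 3 hr 1 and 0 (1.81% and 1.87%), at 6 hr 2 and 1 (6.4% and 9.92%) and at 9 hr 1 and 0 (4.69% and 3.22%). At an unadjusted p under 0.05 the numbers in either direction were 2, 6, 6, 3 and 4, against 17.6%, 35.3%, 23.4%, 30.3% and 26.9% of all genes. With the mouse as a block over all 40 libraries the number called was 5 at 1 hr, where Slc7a1 (0.27), Slc3a2 (−0.13), Slc1a5 (0.16) and Slc38a2 (0.35) joined Slc7a7 with adjusted p from 0.00812 to 0.0312. It was 3 at 3 hr, where Slc7a6 (0.24, adjusted p = 0.0322) and Slc3a2 (−0.14, adjusted p = 0.0347) joined, and 3 at 9 hr, where Slc7a11 and Slc7a7 joined Slc1a5. How many of all genes the block called was not counted, so the shares above do not apply to its numbers. That fit pooled the times as well as adding the block, and which of these brought the added calls was not tested. At 6 hr 39.2% of all genes called were higher in Cpeb4-/- cells in the deposited scaling and 50.7% after quantile normalization.

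The interaction was called for 0 of the 10 at 1 hr (0.00763% of 13103 genes) and 0 at 3 hr (0.206%), and for 1 at 6 hr (2.94%) and 1 at 9 hr (1.76%), both times Slc7a7. At an unadjusted p under 0.05 in limma the numbers were 0, 2, 3 and 2, against 1.57%, 5.03%, 15.1% and 12% of all genes. With the mouse as a block 3 were called at 6 hr, where Slc7a11 and Slc7a6 (0.31, adjusted p = 0.0370) joined. The share of all genes with an interaction under the block was not counted. Of all genes with an interaction at 6 hr, 30.65% had a positive one in the deposited scaling and 44.9% after quantile normalization.

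**Figure D4:**
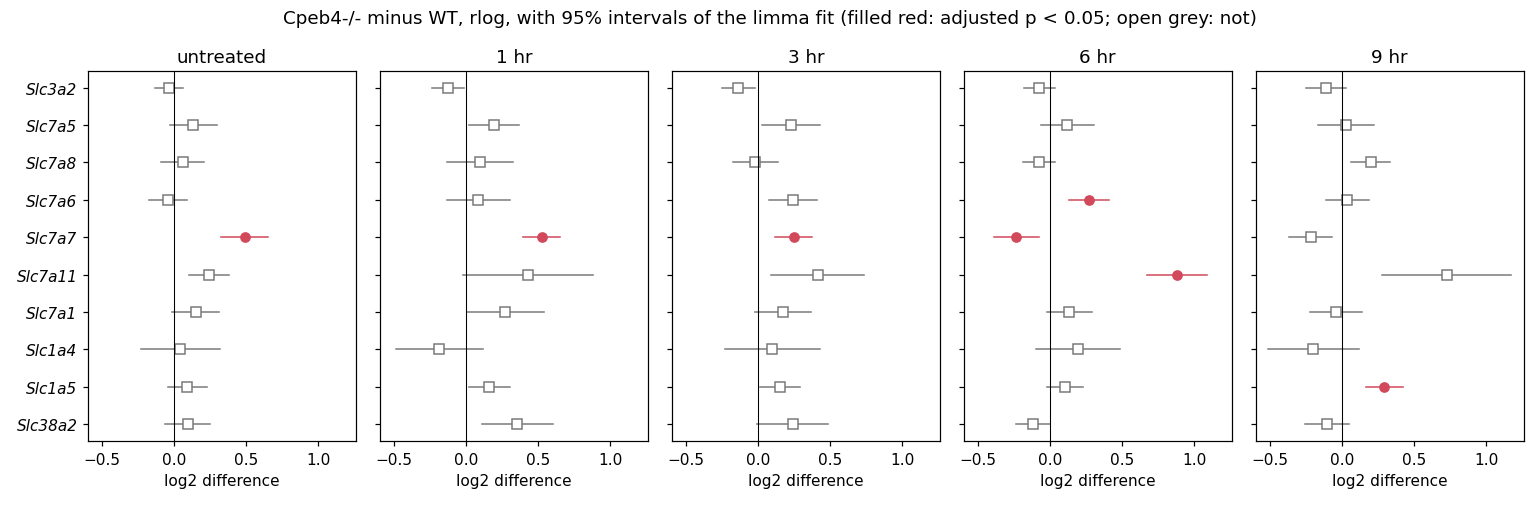
Each panel gives, for 1 time, the difference in rlog between Cpeb4-/- and WT cells (x axis, log2, with 95% intervals of the limma fit, 4 mice per group) for the 10 transporters (y axis). Filled red points passed the test: Slc7a7 at 0, 1 and 3 hr (0.49, 0.52, 0.25), Slc7a6, Slc7a7 and Slc7a11 at 6 hr (0.27, −0.23, 0.88) and Slc1a5 at 9 hr (0.29); the uncalled Slc3a2 point at 6 hr and the Slc7a8 points at 3 and 6 hr turn sign after quantile normalization.

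Genes that act around these carriers were followed in lists chosen by function. In the amino acid response list (targets of ATF4, the transcription factor induced by amino acid shortage), 14 of 23 tested genes were higher and 7 lower at 6 hr in WT cells (38.7% and 39.2% of all genes), with a median log2 difference of 0.36. Nupr1 rose by 2.45 (SE 0.063, adjusted p = 3.30e-18), the transcription factor Cebpb by 1.97 (SE 0.076, adjusted p = 2.30e-15) and the cysteine synthesis enzyme Cth by 1.39 (SE 0.17, adjusted p = 3.27e-07), while Vldlr (−0.89, SE 0.25, adjusted p = 0.00307), Trib3 (−0.73, SE 0.15, adjusted p = 0.000146) and the mitochondrial serine enzyme Shmt2 (−0.66, SE 0.066, adjusted p = 1.26e-08) fell. Between genotypes at 6 hr 3 of 22 were higher and 1 lower in Cpeb4-/- cells (6.4% and 9.92% of all genes). Ddit4, an inhibitor of mTORC1, went from 6.63 ± 0.149 to 7.45 ± 0.105, a difference of 0.82 (SE 0.090, adjusted p = 0.000229). Gpt2 had 0.26 (SE 0.066, adjusted p = 0.0183), Cebpg 0.18 (SE 0.041, adjusted p = 0.0104) and Nupr1 −0.23 (SE 0.070, adjusted p = 0.0446). At 9 hr 0 were higher and 2 lower (4.69% and 3.22%), Ddit3 (−0.43, SE 0.092, adjusted p = 0.0205) and Nupr1 (−0.36, SE 0.099, adjusted p = 0.0485).

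The glutathione and NRF2 list holds genes of glutathione synthesis and use with other targets and regulators of NRF2, the transcription factor of the antioxidant response. Of its 14 tested genes, 9 were higher and 1 lower in Cpeb4-/- cells at 6 hr (6.4% and 9.92% of all genes), with a median log2 difference of 0.24 beside −0.015 over all genes. Gclm, the modifier subunit of the rate-limiting enzyme of glutathione synthesis, went from 10.28 ± 0.107 to 10.86 ± 0.0712, a difference of 0.59 (SE 0.057, adjusted p = 0.000112). The quinone reductase Nqo1 had 0.56 (SE 0.12, adjusted p = 0.00964) and the sulfiredoxin Srxn1 0.51 (SE 0.083, adjusted p = 0.00191). Keap1, the repressor of NRF2, had −0.24 (SE 0.042, adjusted p = 0.00249) and was the 1 lower gene. At 9 hr 3 were higher (4.69% of all genes), Gclm (0.51, SE 0.12, adjusted p = 0.0272), Nqo1 (0.50, SE 0.12, adjusted p = 0.0312) and the glutathione reductase Gsr (0.22, SE 0.044, adjusted p = 0.0159). At 0 and 1 hr 0 of 14 passed in limma, with 6 and 8 at an unadjusted p under 0.05 (17.6% and 35.3% of all genes). At 3 hr 2 passed, where 1.81% of all genes were called higher and 1.87% lower. In WT cells LPS raised 7 of 14 and lowered 5 by 6 hr (38.7% and 39.2% of all genes), with Gsr at 1.99 (SE 0.042, adjusted p = 1.53e-19), the heme oxygenase Hmox1 at 1.30 (SE 0.099, adjusted p = 1.62e-10) and Keap1 at 1.23 (SE 0.055, adjusted p = 2.93e-14), and with falls of Ggt5 (−1.87, SE 0.14, adjusted p = 1.47e-10), Gpx4 (−0.79, SE 0.16, adjusted p = 0.000190) and Gclc (−0.47, SE 0.13, adjusted p = 0.00333).

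Of 15 enzymes in pathways that use or make amino acids, LPS raised 7 and lowered 5 in WT cells by 6 hr, beside 38.7% and 39.2% of all genes. Nos2, which makes nitric oxide from arginine, went from 8.11 ± 0.00723 to 14.09 ± 0.279, a difference of 5.98 (SE 0.16, adjusted p = 8.12e-18). Ass1, which rebuilds arginine from citrulline, had 3.10 (SE 0.097, adjusted p = 7.38e-17) and the arginase Arg2 2.71 (SE 0.13, adjusted p = 9.78e-14). Glul, the glutamine synthetase, had −1.71 (SE 0.058, adjusted p = 2.58e-16), the branched-chain enzyme Bckdha −1.27 (SE 0.073, adjusted p = 1.60e-12) and Glud1 −0.40 (SE 0.046, adjusted p = 1.06e-07), all falls. In Cpeb4-/- cells 4 were higher and 3 lower than in WT at 6 hr (6.4% and 9.92% of all genes), while 4 were higher at 9 hr and 0 lower (4.69% and 3.22%). Arg1, the cytosolic arginase, had 0.57 (SE 0.13, adjusted p = 0.0140) at 6 hr and 1.61 (SE 0.16, adjusted p = 0.000679) at 9 hr. The histidine lyase Hal had 1.21 (SE 0.29, adjusted p = 0.0148) and 2.22 (SE 0.34, adjusted p = 0.00603), and Ass1 0.52 (SE 0.085, adjusted p = 0.00201) and 0.76 (SE 0.16, adjusted p = 0.0205). The tryptophan pathway enzymes Kmo (−0.72, SE 0.14, adjusted p = 0.00422) and Kynu (−0.59, SE 0.17, adjusted p = 0.0315) and Bckdha (−0.18, SE 0.056, adjusted p = 0.0439) were the 3 lower ones at 6 hr.

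In the list of amino acid sensing upstream of mTORC1, 10 of 31 genes were higher and 13 lower at 6 hr in WT cells, beside 38.7% and 39.2% of all genes. Wdr59 (1.44, SE 0.072, adjusted p = 1.63e-13), Mtor (0.97, SE 0.083, adjusted p = 1.05e-09) and Fnip2 (0.91, SE 0.13, adjusted p = 2.35e-06) had the largest rises. Sesn1, a leucine-responsive inhibitor of the pathway, fell from 12.22 ± 0.0647 to 9.02 ± 0.169, a difference of −3.21 (SE 0.11, adjusted p = 2.85e-16), and the Rag GTPase genes Rragb (−2.12, SE 0.14, adjusted p = 1.71e-11) and Rragd (−1.74, SE 0.14, adjusted p = 4.35e-10) fell too. In Cpeb4-/- cells at 6 hr 1 was higher, Seh1l (0.17, SE 0.042, adjusted p = 0.0167), and 5 were lower, against 6.4% and 9.92% of all genes, among the lower ones Sesn3 (−0.49, SE 0.10, adjusted p = 0.00768), Fnip2 (−0.29, SE 0.083, adjusted p = 0.0328) and Rptor (−0.25, SE 0.058, adjusted p = 0.0131). At 9 hr Seh1l was higher (0.22, SE 0.053, adjusted p = 0.0330) and Flcn lower (−0.29, SE 0.049, adjusted p = 0.00773), against 4.69% and 3.22%.

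Of the 20 other transporters tested between genotypes at 6 hr, 2 were higher in Cpeb4-/- cells (6.4% of all genes), Slc36a1 (0.34, SE 0.060, adjusted p = 0.00326) and the aromatic amino acid carrier Slc16a10 (0.19, SE 0.053, adjusted p = 0.0273). Against 9.92% of all genes, 2 were lower, Slc7a4 (−0.45, SE 0.13, adjusted p = 0.0387) and Slc15a3 (−0.19, SE 0.056, adjusted p = 0.0355). At 9 hr Slc36a1, a lysosomal carrier, was again higher (0.42, SE 0.072, adjusted p = 0.00834) and Slc15a3 again lower (−0.26, SE 0.062, adjusted p = 0.0297). At 0, 1 and 3 hr 0 of them passed in limma, with 4, 6 and 4 at an unadjusted p under 0.05 (17.6%, 35.3% and 23.4% of all genes).

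Among the genes whose pattern over the 40 libraries was most like that of Slc7a11 were Srebf2, a transcription factor of sterol metabolism, Pstpip2, Mtmr7 and Ago3, with Pearson r of 0.973, 0.972, 0.971 and 0.970 among 12952 genes. For Slc3a2 the 5 most alike were Slc15a3, Lmo4, Psmd12, Arl8a and Spata13, with r of 0.968, 0.966, 0.963, 0.962 and 0.957. These coefficients describe a time course in which libraries share mice and treatment, and they were computed on the deposited scaling.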

How the data were processed

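Poly(A) RNA-seq of BMDMs from 4 WT and 4 Cpeb4-/- mice at 5 times was analysed (40 libraries). Per the labels and the study's methods, the authors aligned reads with STAR 2.3.0e to mm10, counted them with featureCounts and transformed the counts with DESeq2, and deposited rlog values, which are on a log2 scale. Counts were not analysed here, so depth is unknown.

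Genes entered a fit if their rlog averaged log2 of 5 or more over its libraries, and were tested with limma 3.58.1 (R 4.3.3; eBayes with trend, two-sided, Benjamini-Hochberg over all genes tested, threshold 0.05). Genotypes were compared at each time over 8 libraries, times within a genotype over 20, and interactions over 40. Groups and mice came from the labels. The same mouse gave 1 library at each time, and deviations from the group means correlated between libraries of the same mouse (median r 0.29, above 0.1 in 68 of the 80 pairs), against −0.091 for other mice of the genotype. Alternatives were no filter, quantile normalization, no variance trend, batch as a covariate, the mouse as a block (statmod 1.5.0) and leaving out each mouse. In the genotype tests the block was a correlation between libraries of a mouse, in a fit of all 40 libraries together. In the time and interaction tests it was a term for each mouse. P-values of the genotype tests at a single time measure the spread between mice. Those of the time and interaction tests treat the libraries of a mouse as independent, except where the mouse was a block. Summaries and plots used Python 3.11.15, pandas 2.3.3 and matplotlib 3.10.9. The limma step was tested on simulated data. Its libraries were drawn as independent, without a shared effect of the mouse, so that run could not show how shared mice affect the tests. Marker sums are sums of antilogs of rlog.

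The 10 genes and the lists were chosen with earlier results of these data known. All 10 were named; of the lists, up to 3 called genes per direction with the largest differences were named, at 6 hr in WT cells and between genotypes at 6 and 9 hr, with the 5 genes most correlated with Slc3a2 and with Slc7a11, of which 1 for Slc7a11 is not reported here.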

Additional observations from a re-analysis of the deposited data

Results flagged for a closer look

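In 8 of 100 groups of 4 libraries, 1 mouse stood far from the other 3, where chance gives about 1 in 20 groups. Slc1a4 was 5.58 in Cpeb4-/- mouse 2 at 1 hr, against 5.36 to 5.38 in the others. Slc38a2 was 11.51 in Cpeb4-/- mouse 55 at 6 hr, against 11.33 to 11.34. Slc3a2 was 13.47 in WT mouse 69 at 3 hr, against 13.31 to 13.33. Slc7a1 was 10.11 in Cpeb4-/- mouse 2 at 9 hr, against 10.43 to 10.48. Slc7a11 was 7.84 in WT mouse 87 at 0 hr, against 7.95 to 7.96. Slc7a7 was 9.48 in WT mouse 69 at 0 hr, against 9.63 in each. Slc7a8 was 12.39 in Cpeb4-/- mouse 62 at 1 hr, against 12.29 to 12.31, and 13.43 in Cpeb4-/- mouse 55 at 6 hr, against 13.23 to 13.26.

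The LPS change of Slc7a7 differed between genotypes by the interaction test in limma, by −0.72 at 6 hr (adjusted p = 5.29e-05) and −0.70 at 9 hr (adjusted p = 0.000148).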

How the results depend on the processing

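Of 93 called values of the 10 transporters over 20 comparisons, 66 kept their direction and call in every alternative run. Of 787 alternative values of called results, 716 kept both, 69 lost the call and 2 changed sign. Of the uncalled results, 35 alternative values passed the test and 35 changed sign. Unless a value or the removal of a mouse shows it, the cause was not tested.

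The number called between genotypes at 0 hr, 1 of 10, was 0 with no filter. At 1 hr (1) it was 5 with the mouse as a block and 1 to 3 without 1 mouse (3 without WT 69). At 3 hr (1) it was 0 with no filter, without the variance trend and with batch as a covariate, 3 with the block, and 0 to 3 without 1 mouse (3 without WT 88). At 6 hr (3) it was 2 to 4 without 1 mouse. At 9 hr (1) it was 2 after quantile normalization and with batch as a covariate, 3 with the block, and 0 to 4 without 1 mouse (0 without WT 87, 4 without Cpeb4-/- 2). From 6 to 9 hr in WT (3) it was 1 with no filter and 1 to 3 without 1 mouse (1 without WT 25). The interaction at 6 hr (1) was 3 with the mouse as a block. For the block the number of all genes called was not counted. Outside the calls given in the text, and the WT step from 1 to 3 hr of Slc1a5 (−0.14, adjusted p = 0.0223), the block changed no other call.

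After quantile normalization the sign turned between genotypes for Slc7a8 at 3 hr (0.019) and 6 hr (0.022) and Slc3a2 at 6 hr (0.020), in WT cells for Slc3a2 at 3 hr (−0.13) and from 1 to 3 hr (−0.26), Slc7a6 from 3 to 6 hr (0.029) and Slc38a2 from 6 to 9 hr (0.14), in Cpeb4-/- cells for Slc1a5 at 1 hr (−0.072) and Slc3a2 at 3 hr (−0.19), and in the interaction for Slc7a7 at 1 hr (−0.017) and Slc3a2 at 6 hr (0.032).

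Without 1 mouse, uncalled genotype differences crossed 0 for Slc1a4 at 0 hr (−0.034 to 0.11) and 3 hr (−0.0033 to 0.20), Slc7a8 at 3 hr (−0.065 to 0.035), and Slc7a1 (−0.079 to 0.045), Slc7a5 (−0.019 to 0.10) and Slc7a6 (−0.00099 to 0.070) at 9 hr. WT steps did for Slc1a4 from 1 to 3 hr (−0.016 to 0.29) and Slc38a2 from 6 to 9 hr (−0.035 to 0.032). Interactions did for Slc7a1 (−0.094 to 0.11) and Slc1a4 (−0.068 to 0.14) at 3 hr, and Slc7a1 (−0.10 to 0.056), Slc7a5 (−0.084 to 0.044), Slc1a4 (−0.022 to 0.24) and Slc1a5 (−0.014 to 0.033) at 6 hr.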
